A study of Mus musculus with 18 samples.

Results

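The 38 genes described here encode enzymes and regulators that detoxify reactive oxygen species (ROS) and keep protein thiols reduced. They are the superoxide dismutases, catalase, glutathione and thioredoxin systems, peroxiredoxins, glutaredoxins, heme oxygenases, glutathione transferases, methionine sulfoxide reductases and the regulators NRF2 (gene Nfe2l2), KEAP1 and TXNIP. They were taken by name, not by their values, from 35865 names that were listed once in the RNA table, and all 38 were found. Of these, 37 passed the filter on low values (a TPM, the length-scaled share of transcripts, of at least 1 in 2 or more libraries) and were compared between genotypes among 15240 genes. The exception was Mgst1.

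RNA-seq was performed on YFP+ regulatory T cells (Tregs), sorted from CD4+ splenocytes, with 1 library per mouse, 2 WT and 2 Chd8-/- libraries. CHD8 is a chromodomain chromatin remodeler. In Chd8-/- mice the floxed Chd8 alleles were removed by a YFP-Cre fusion driven from the X-linked Foxp3 locus, so that deletion took place in Foxp3-expressing cells. The labels give the genotypes as CHD8Flox/FloxFoxp3YFP-Cre for Chd8-/- and CHD8flox/floxFoxp3YFP-Cre/+ for WT, so the labels of the WT mice also name floxed Chd8, whereas the methods of the study describe WT littermates without it. The grouping of the study was used. A Poly IC injection is listed as the treatment for every sample of both genotypes. The mice were sex-matched and 5 to 7 weeks of age according to the methods. The Chd8-/- mice are described as developing early inflammatory disease, and loss of CHD8 in the Treg itself and the inflamed host cannot be told apart.

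Chd8 itself was listed at 24.7 and 27.6 TPM in the WT libraries and at 14.9 and 11.4 TPM in the Chd8-/- libraries. The groups did not overlap, and Chd8 transcripts were still detected in Chd8-/- Tregs. Whether they come from exons outside the floxed part was not tested. All 7 Treg markers were detected in every library, with Foxp3 between 202.8 and 232.1 TPM and a summed level between 3342 and 4006 TPM. Markers of other cells differed between the 2 Chd8-/- mice. The sum of 7 erythroid markers was 385.9 and 354.2 TPM in the WT libraries, 8.8 TPM in Chd8-/- replicate 1 (Hbb-bs, Hbb-bt and Hba-a2 at 0) and 2003 TPM in Chd8-/- replicate 2. The sum of 8 myeloid markers was 293.4 and 362.9 TPM in WT, 55.2 TPM in Chd8-/- replicate 1 (Cd14, Fcer1g and S100a9 at 0) and 1717 TPM in Chd8-/- replicate 2, where Lyz2 made up 1360.3 TPM. The 5 B cell markers summed to 110.5 to 122.8 TPM in 3 libraries and to 404.8 TPM in Chd8-/- replicate 2, while CD8 and NK markers (6, sums of 23.0 to 80.0 TPM, Ncr1 at 0 in all libraries but WT replicate 1) and dendritic cell markers (4, sums of 0.8 to 12.1 TPM) were low. Xist, the RNA of the inactive X chromosome, was between 500.2 and 843.3 TPM in all 4 libraries, and the Y-linked genes Ddx3y, Kdm5d, Eif2s3y and Uty were listed at 0 in all of them, although the study describes a male and a female of each genotype.

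ROS are by-products of mitochondrial respiration and of NADPH oxidases, and they also act as signals downstream of the T cell receptor. Superoxide dismutases convert superoxide to hydrogen peroxide, which is then removed by catalase, glutathione peroxidases or peroxiredoxins. The glutathione and thioredoxin systems return these enzymes to their reduced form with electrons from NADPH. NRF2 is the transcription factor that induces many of these genes under oxidative stress, and KEAP1 marks NRF2 for degradation in unstressed cells. Tregs are known to be sensitive to the balance of ROS and antioxidants.

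The redox genes did not move as one block. For 14 of the 37 genes compared (37.8%), each Chd8-/- value exceeded each WT value, beside 14.8% of all genes compared. Both lay under WT for 5 genes (13.5%), beside 27.8% of all genes. A log2 fold change of 0.7 or more on the log2(TPM + 1) scale was found for 8 genes, beside 9.2% of all genes, and one of -0.7 or less for 4 genes, beside 19.2% of all genes. The groups were tested with limma across all genes. An unadjusted p under 0.05 was obtained for 5 redox genes that were higher in Chd8-/- (Sod1, Gsr, Prdx4, Nqo1 and Gstp1), beside 3.9% of all genes, and for 0 that were lower, beside 6.3% of all genes. Nqo1 was under 1 TPM in both WT libraries and passed the filter only through the libraries where it was high, so that its place in these counts is no support for a difference. After Benjamini-Hochberg adjustment, 0 redox genes passed 0.05, and neither did any other gene in the table (0.0%). These counts depended on single libraries. Without Chd8-/- replicate 1, 5 redox genes were higher and 7 lower at an unadjusted p under 0.05, beside 5.94% and 16.4% of all genes. Without Chd8-/- replicate 2 the counts were 6 and 1 (beside 3.75% and 6.23%), without WT replicate 1 they were 1 and 0 (beside 1.5% and 1.5%), and without WT replicate 2 they were 2 and 0 (beside 1.78% and 1.48%). With 2 libraries per genotype, the smallest two-sided p of an exact permutation test is 0.33. Sod1, Gpx4, Gsr, Prdx4 and Txnrd1 were picked by the study as representative ROS genes from these same libraries, so that their direction is not independent evidence here.

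The median log2 fold change of the 37 genes was 0.14, whereas that of all genes compared was -0.15. In Chd8-/-, 22 of the 37 were higher and 15 lower, beside 5873 higher and 9367 lower of all 15240 genes compared. When the 4 libraries were quantile normalized, the median of all genes became 0.00 and that of the redox genes 0.16, and 21.0% of all genes were then apart on the higher side and 21.3% on the lower side. Under that scaling 15 redox genes (40.5%) were higher and 5 (13.5%) lower with no overlap. When a library is left out, groups that are apart stay apart. Counts of genes apart can then only rise, but for genes lost to the filter. Without Chd8-/- replicate 2, the library with the highest erythroid and myeloid sums, 19 of 36 redox genes (52.8%) lay above both WT libraries, beside 32.2% of all genes. Without Chd8-/- replicate 1 the count was 17 of 36 (47.2%), beside 27.9%. On the lower side, the 5 genes became 12 (33.3%, beside 53.8% of all genes) without Chd8-/- replicate 1 and 9 (25.0%, beside 39.2%) without replicate 2, and the 4 genes at or past -0.7 became 9 (25.0%, beside 28.8%) and 1 (2.78%, beside 14.8%), respectively. The summed level of all 38 genes was 4029 and 4058 TPM in the WT libraries and 4995 and 5087 TPM in the Chd8-/- libraries, and Sod1 had the largest difference in mean TPM of the 38.

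**Figure D1:**
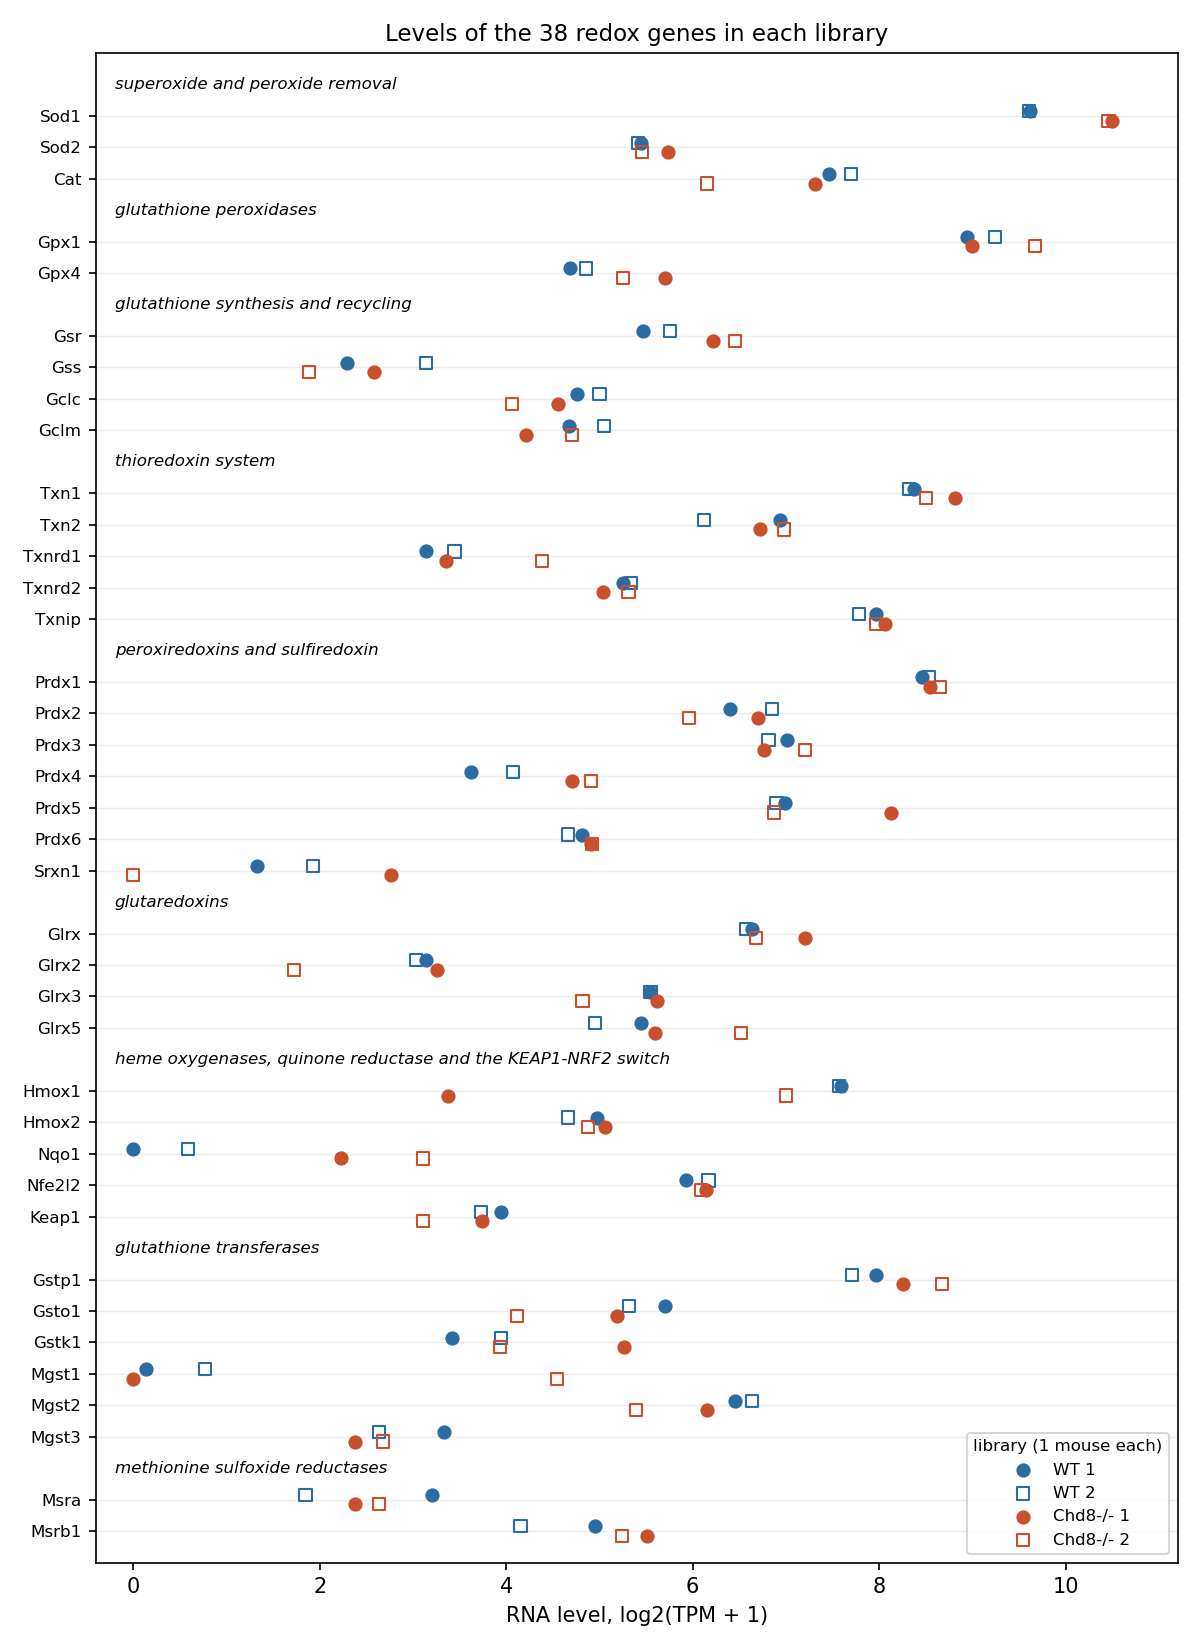
RNA levels of the 38 redox genes on a log2(TPM + 1) axis, grouped by role, with blue symbols for the 2 WT libraries and orange symbols for the 2 Chd8-/- libraries (filled circles replicate 1, open squares replicate 2). Sod1 has the highest level, with the libraries of each genotype nearly on top of each other and the genotypes apart, whereas Hmox1, Srxn1 and Mgst1 show 1 Chd8-/- library far from the other.

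Expression varied widely within the family. Sod1, Gpx1, Prdx1, Txn1, Gstp1, Txnip, Prdx5 and Cat were the most abundant transcripts, and Srxn1, Nqo1 and Mgst1 were at or near 0 TPM in at least 1 library. The libraries of one genotype were also not equally alike. The median difference between the 2 WT libraries was 0.25 on the log2 scale for redox genes (0.32 for all genes), and that between the 2 Chd8-/- libraries was 0.49 (0.52 for all genes). A difference of 1 or more within a genotype was seen for 8 redox genes in Chd8-/- and for 1 in WT. Chd8-/- replicate 2 was the library farthest from the mean of the other 3 (log2 scale) for 16 genes and Chd8-/- replicate 1 for 10 genes, as compared with 5 and 6 genes for the WT libraries. For these counts and for that of differences of 1 or more, no share over all genes was worked out. They are not read as particular to the redox genes.

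Among the genes of superoxide and peroxide removal, Sod1 showed the difference with the least spread. Sod1, the cytosolic copper-zinc superoxide dismutase (chr16:90220762-90226333, plus strand, GRCm38.p6), was listed at 786.6 and 779.9 TPM in WT and at 1444.8 and 1407.4 TPM in Chd8-/-. The values within each genotype were almost identical and the genotypes were far apart. The log2 fold change was 0.86 (SE 0.14, 95% CI 0.49 to 1.23), a 1.82-fold higher level, with an adjusted p of 0.373, and Sod1 ranked 99th of 15240 genes by p. Leaving out any 1 library kept the log2 fold change of Sod1 between 0.84 and 0.88. Its mitochondrial counterpart, the manganese enzyme Sod2, was far less abundant, at 42.5 and 41.5 TPM in WT and 52.3 and 42.9 TPM in Chd8-/-, with 0.17 (SE 0.23). The Chd8-/- values of Sod2 lay above WT only narrowly, and the ratio of Sod1 to Sod2 was 18.5 and 18.8 in WT and 27.6 and 32.8 in Chd8-/-.

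Cat, which encodes catalase, the peroxisomal enzyme that breaks down hydrogen peroxide, pointed the other way. It was listed at 175.9 and 206.8 TPM in WT and at 158.1 and 70.0 TPM in Chd8-/-. The groups did not overlap, but Chd8-/- replicate 1 was close to WT and only replicate 2 was clearly lower. The log2 fold change of Cat was -0.85 (SE 0.44, adjusted p = 0.582), and it was -0.27 without Chd8-/- replicate 2 and -1.43 without replicate 1. The ratio of Sod1 to Cat was 4.47 and 3.77 in WT and 9.14 and 20.1 in Chd8-/-.

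The glutathione peroxidases, selenoproteins that use glutathione to reduce peroxides, differed from each other. Gpx1, the abundant cytosolic form, was listed at 491.1 and 605.0 TPM in WT and at 507.8 and 813.2 TPM in Chd8-/-. The groups overlapped, and the higher mean came from Chd8-/- replicate 2 (log2 fold change 0.24, SE 0.29, and -0.10 without that library). Gpx4, which reduces lipid hydroperoxides in membranes and guards against ferroptosis, was listed at 24.8 and 27.9 TPM in WT and at 51.0 and 37.1 TPM in Chd8-/-. Both Chd8-/- values of Gpx4 exceeded both WT values, with a log2 fold change of 0.70 (SE 0.27, adjusted p = 0.501).

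The gene of glutathione recycling and those of glutathione synthesis had log2 fold changes of opposite sign. Gsr encodes glutathione reductase, which regenerates reduced glutathione with NADPH (chr8:33653238-33698162, plus strand), and was listed at 43.1 and 53 TPM in WT and at 73.2 and 86.7 TPM in Chd8-/-. The genotypes were well separated, with a log2 fold change of 0.73 (SE 0.23, 95% CI 0.10 to 1.35, adjusted p = 0.462). All 3 genes of synthesis lay on the other side of 0, as did 9367 of the 15240 genes compared. Gclc, the catalytic subunit of glutamate-cysteine ligase and the rate-limiting enzyme, was listed at 26.0 and 31.0 TPM in WT and at 22.5 and 15.7 TPM in Chd8-/- (log2 fold change -0.57, SE 0.31, adjusted p = 0.592). The groups did not overlap for Gclc. They did overlap for its modifier subunit Gclm (17.5 to 32.1 TPM, -0.41, SE 0.32) and for glutathione synthetase, Gss (2.7 to 7.8 TPM, -0.48, SE 0.52), of whose exonic bases 43.5% are shared with the antisense gene Gssos2.

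In the thioredoxin system, Txn1, the cytosolic thioredoxin that reduces disulfides in proteins, was listed at 330.6 and 319.0 TPM in WT and at 448.1 and 362.3 TPM in Chd8-/-. Both Chd8-/- libraries were higher, by a log2 fold change of 0.31 (SE 0.18, adjusted p = 0.620). Txnrd1, the cytosolic thioredoxin reductase, was much less abundant, at 7.8 and 9.9 TPM in WT and 9.2 and 19.9 TPM in Chd8-/-. The groups overlapped for Txnrd1, since Chd8-/- replicate 1 lay between the WT values and replicate 2 alone was high (log2 fold change 0.58, SE 0.47, and 0.06 without replicate 2). Mitochondrial Txn2 (68.5 to 125.5 TPM, 0.32, SE 0.34) and Txnrd2 (31.9 to 39.5 TPM, -0.12, SE 0.24) overlapped between genotypes as well.

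Txnip encodes the thioredoxin-interacting protein, an arrestin-family inhibitor of thioredoxin and of glucose uptake that is induced by glucose. It was listed at 249.1 and 219.2 TPM in WT and at 266.8 and 249.4 TPM in Chd8-/-. Chd8-/- replicate 2 was level with WT replicate 1 but for the last digit, so that the separation of the groups was minimal. The 95% interval of the log2 fold change of 0.14 ran from -0.32 to 0.60. Gm15441, an antisense transcript that shares 21.6% of the exonic bases of Txnip, showed nearly the same levels (222.5 and 191.0 TPM in WT, 263.7 and 224.3 TPM in Chd8-/-), and reads of the pair cannot be told apart without strand.

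The peroxiredoxins are thiol peroxidases of different compartments. Prdx4, the form of the endoplasmic reticulum, is encoded on the X chromosome (chrX:155323918-155342272, minus strand) and was listed at 11.3 and 15.8 TPM in WT and at 25.0 and 29.0 TPM in Chd8-/-. The genotypes were well apart, with a log2 fold change of 0.96 (SE 0.31, 95% CI 0.13 to 1.79, adjusted p = 0.462), and leaving out any 1 library gave 0.73 to 1.18. By contrast, Prdx1, the abundant cytosolic form, was listed at 351.6 and 370.8 TPM in WT and at 373.0 and 401.4 TPM in Chd8-/- (0.10, SE 0.15, 95% CI -0.32 to 0.52). The ratio of Prdx4 to Prdx1 was 0.0321 and 0.0426 in WT and 0.0670 and 0.0722 in Chd8-/-.

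Prdx5, found in mitochondria, peroxisomes and cytosol, was listed at 126.4 and 118.4 TPM in WT and at 278.1 and 116.3 TPM in Chd8-/-. Only Chd8-/- replicate 1 was high, and the log2 fold change of 0.55 (SE 0.46) became -0.07 without it. Prdx5 shares 32.2% of its exonic bases with Trmt112 on the opposite strand, and Trmt112 was between 76.2 and 102.9 TPM in the 4 libraries. Prdx2 (61.4 to 114.1 TPM, -0.29, SE 0.34) and mitochondrial Prdx3 (107.9 to 146.1 TPM, 0.07, SE 0.24) overlapped between genotypes, and Prdx6 was marginally higher in both Chd8-/- libraries (24.3 to 29.3 TPM, 0.18, SE 0.24). Srxn1, the sulfiredoxin that repairs overoxidized peroxiredoxins, was listed at 1.5 and 2.8 TPM in WT and at 5.8 and 0.0 TPM in Chd8-/-. The Chd8-/- libraries thus held both the highest and the lowest value of Srxn1, and no direction can be given.

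Glutaredoxins reduce mixed disulfides with glutathione, and some of them carry iron-sulfur clusters. Glrx5, the mitochondrial protein of iron-sulfur cluster assembly that is also needed for heme synthesis, was listed at 42.6 and 30.0 TPM in WT and at 47.4 and 90.8 TPM in Chd8-/- (0.86, SE 0.41, adjusted p = 0.560). The groups did not overlap, but Chd8-/- replicate 1 was only slightly above WT replicate 1. The high value was in the library with the erythroid sum of 2003 TPM, and the part of erythroid transcripts in the Glrx5 value was not tested. Glrx (94.3 to 147.0 TPM, 0.34, SE 0.25) was higher in both Chd8-/- libraries, and Glrx3 (27.2 to 48.2 TPM, -0.32, SE 0.34) overlapped. Glrx2, a mitochondrial form, was listed at 7.8 and 7.2 TPM in WT and at 8.6 and 2.3 TPM in Chd8-/-, where the replicates lay on either side of WT (-0.59, SE 0.63).

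**Figure D2:**
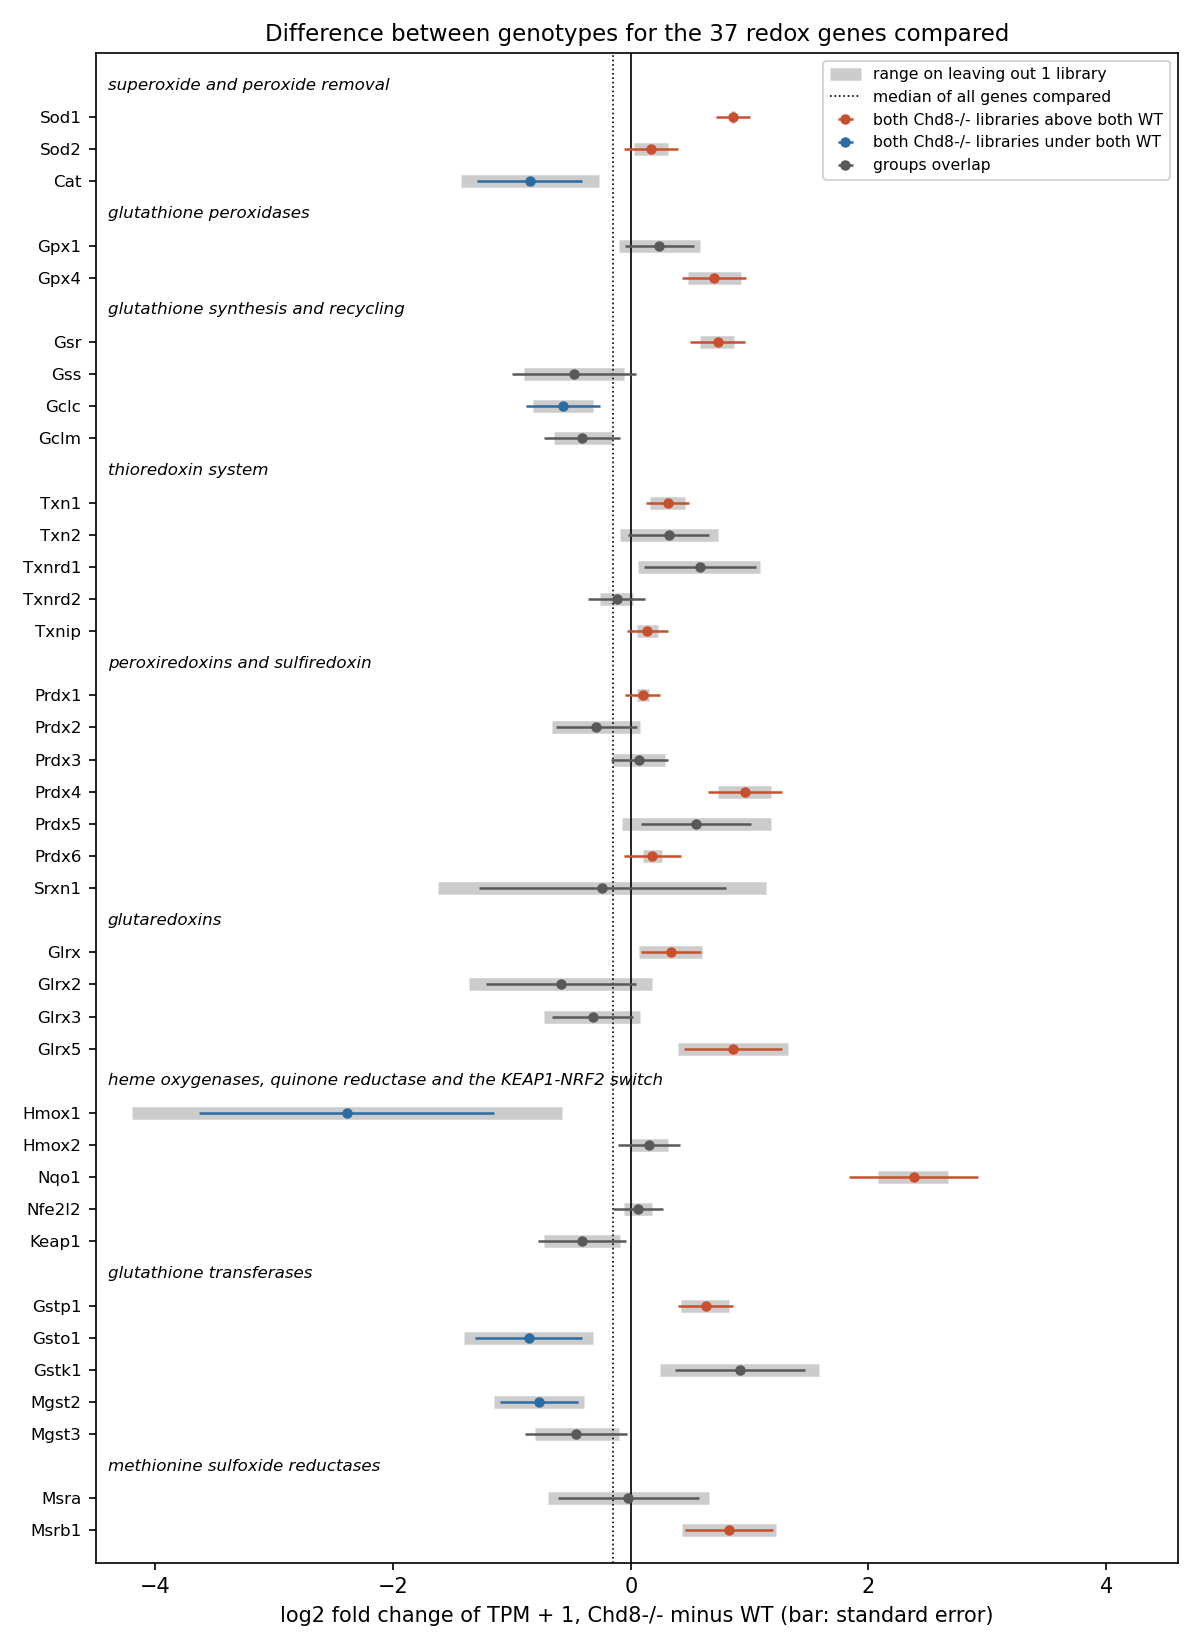
Log2 fold change (Chd8-/- minus WT, log2(TPM + 1) scale) of the 37 redox genes compared, as points with standard errors and n = 2 libraries per genotype, over grey bars for the range on leaving out 1 library. The grey bar is narrow for Sod1 (0.84 to 0.88) and wide for Hmox1 (-4.20 to -0.58) and Srxn1 (-1.62 to 1.14).

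Neither gene of the KEAP1-NRF2 switch was separated between the genotypes. Nfe2l2 was listed at 60.0 and 71.0 TPM in WT and at 69.5 and 67.0 TPM in Chd8-/-, and Keap1 at 14.4 and 12.3 TPM in WT and at 12.4 and 7.6 TPM in Chd8-/-. The groups overlapped for both, with log2 fold changes of 0.06 for Nfe2l2 (95% CI -0.50 to 0.62) and -0.41 for Keap1 (95% CI -1.42 to 0.59). NRF2 is controlled mainly through protein stability, which RNA levels do not show.

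Among well-known NRF2 targets, Nqo1 was near the lowest value in WT, and Hmox1 differed widely between the Chd8-/- libraries. Nqo1, the NADPH quinone reductase (chr8:107388225-107403205, minus strand), was listed at 0.0 and 0.5 TPM in WT and at 3.7 and 7.6 TPM in Chd8-/-. Nqo1 was thus at or near the lowest value of the table in WT and low but present in both Chd8-/- libraries. The log2 fold change of Nqo1 was 2.38 with a pseudocount of 1 TPM, 4.46 with 0.1 TPM and 1.00 with 5 TPM, and it is given with no test, because the gene was compared only on account of its Chd8-/- values. Hmox1, the inducible heme oxygenase that degrades heme and is abundant in macrophages that take up red blood cells, was listed at 191.3 and 189.4 TPM in WT and at 9.4 and 126.7 TPM in Chd8-/-. Both Chd8-/- libraries were under WT, by very different amounts, and the log2 fold change of -2.39 (SE 1.24, adjusted p = 0.584) was -4.20 without Chd8-/- replicate 2 and -0.58 without replicate 1. The constitutive form Hmox2 was between 24.3 and 32.3 TPM in the 4 libraries (0.15, SE 0.26), with 41.5% of its exonic bases shared with Cdip1 on the opposite strand.

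Hmox1 was lowest in the library where markers of splenic red pulp macrophages were lowest. Spic, the transcription factor that defines these cells, was listed at 75.6 and 54.5 TPM in WT and at 0.0 and 66.9 TPM in Chd8-/-. Vcam1 was at 100.2 and 107.7 TPM in WT and at 4.9 and 162.6 TPM in Chd8-/-, and the iron exporter Slc40a1 at 27.5 and 20.9 TPM in WT and at 1.2 and 16.8 TPM in Chd8-/-. The sum of all 3 markers, Hmox1 not included, was 203.3 and 183.1 TPM in WT, 6.1 TPM in Chd8-/- replicate 1 and 246.3 TPM in Chd8-/- replicate 2. In Chd8-/- replicate 2 Hmox1 was under WT while the marker sum was above it, through Vcam1 alone. Spic lay within the WT range in that library, and Slc40a1 was under WT. The part of these macrophages in the Hmox1 value was not tested. Fewer cells of a type cannot be told apart from less RNA per cell in such bulk libraries. Sod1, Gsr, Prdx4 and Gstp1 were singled out by their difference between genotypes, and the part of macrophage transcripts in their values was not tested.

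**Figure D3:**
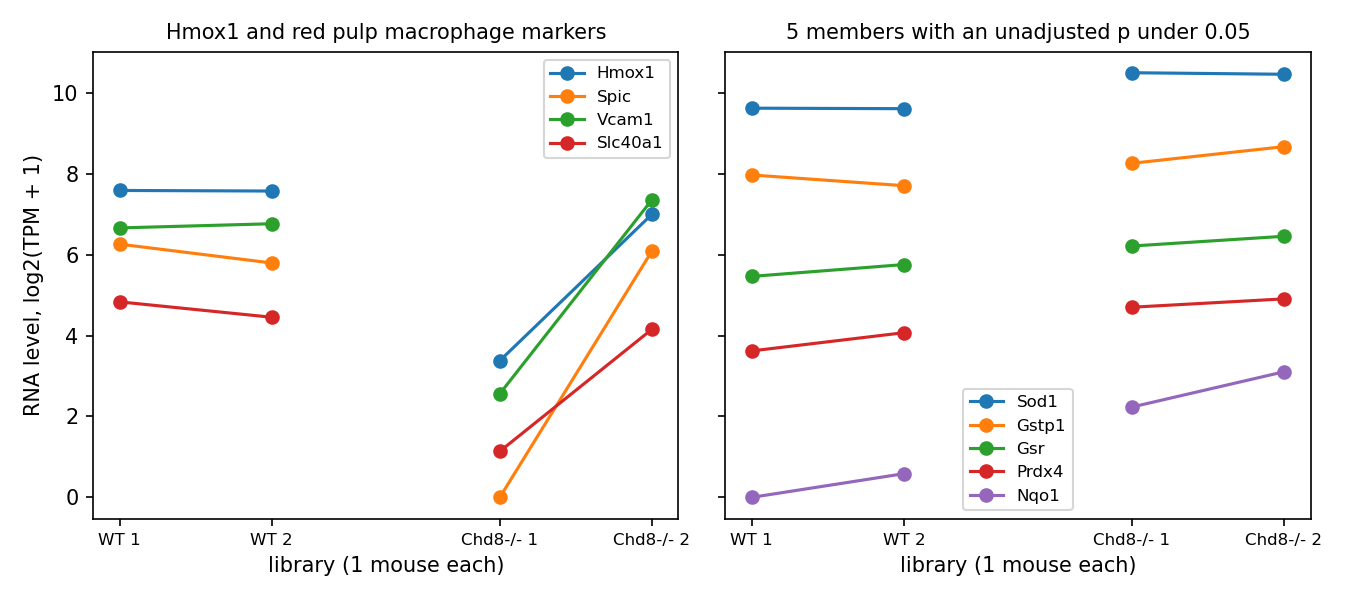
RNA levels on a log2(TPM + 1) axis in each library, lines joining the 2 libraries of a genotype, for Hmox1 with the red pulp macrophage markers Spic, Vcam1 and Slc40a1 (left) and for the 5 redox genes with an unadjusted limma p under 0.05 (right). On the left all 4 genes are low in Chd8-/- replicate 1 and closer to WT in replicate 2. The genes on the right were picked by their p-value, so that the separation shown follows from that choice. Nqo1 passed the filter only through its Chd8-/- libraries and is no support for a difference.

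Promoters of the redox genes were searched for the core of the antioxidant response element, to which NRF2 binds (TGACNNNGC on either strand), from 250 bases before to 50 bases after each RefSeq start in GRCm38.p6. A promoter was given for 33 of the 38 genes (all but Gclc, Gsr, Hmox1, Prdx6 and Msra). A match was found for 7 of them (21.2%), beside 14.0% of all genes with a promoter. These were Sod1, Txnrd1, Prdx1, Gclm, Nfe2l2, Mgst1 and Srxn1. Some genes have several promoters. Counted by promoter, 7 of 45 (15.6%) had a match, beside 12.4% of all promoters. Of the 14 genes that lay above WT in both Chd8-/- libraries, all but Gsr and Prdx6 had a promoter in the table, and Sod1 and Prdx1 had a match. The matches of 4 genes whose values are given above, chosen after their values were seen, are printed 5′ to 3′ on the strand of the gene with 20 bases on either side, and capitals mark the core, which reads as its reverse complement in all 4. The same core stands before Sod1 (log2 fold change 0.86), Txnrd1 (0.58), Prdx1 (0.10) and Gclm (-0.41). A relation of the core to these differences was not tested.
Sod1 (chr16:90220686-90220734, plus strand): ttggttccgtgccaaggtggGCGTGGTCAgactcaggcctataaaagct
Txnrd1 (chr10:82859094-82859142, plus strand): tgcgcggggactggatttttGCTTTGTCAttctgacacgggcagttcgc
Prdx1 (chr4:116685446-116685494, plus strand): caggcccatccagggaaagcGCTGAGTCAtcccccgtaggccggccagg
Gclm (chr3:122245403-122245451, plus strand): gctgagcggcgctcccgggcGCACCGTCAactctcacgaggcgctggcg
A match of these letters is a description of the sequence and does not show binding.

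Other known NRF2 targets, from a list of 25 of which 22 were compared, had a median log2 fold change of -0.11, beside -0.15 for all genes. Of the 22, 8 were higher and 14 lower, beside 5873 higher and 9367 lower of all 15240 genes compared. The median of the list had no stable direction, since it was 0.06 after quantile normalization and 0.08 without WT replicate 2. At an unadjusted p under 0.05, 0 of them were higher and 2 lower (Osgin1 and Idh1), beside 3.9% and 6.3% of all genes. Osgin1, an oxidative stress-induced growth inhibitor, was listed at 10.5 and 8.5 TPM in WT and at 3.0 and 0.4 TPM in Chd8-/- (-2.14, SE 0.64, adjusted p = 0.453). Idh1, the cytosolic isocitrate dehydrogenase that yields NADPH, was listed at 13.4 and 14.3 TPM in WT and at 3.5 and 7.4 TPM in Chd8-/- (-1.27, SE 0.44, adjusted p = 0.477). Both were lower in each Chd8-/- library. Txnrd3, a thioredoxin reductase best known from testis, was at most 0.5 TPM in WT and 1.9 and 2.0 TPM in Chd8-/-, and passed the filter only through the latter, so that no test is given. Blvrb is the biliverdin reductase that is abundant in red cells. It was listed at 23.1 and 6.4 TPM in WT and at 23.6 and 46.6 TPM in Chd8-/- (1.36, SE 0.71). Its highest value was in the library with the highest erythroid sum. In the library with the lowest erythroid sum (8.8 TPM), Blvrb was about level with WT replicate 1. The part of erythroid transcripts in the Blvrb value was not tested.

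Glutathione transferases couple glutathione to electrophiles. Gstp1, the pi-class enzyme (chr19:4035411-4037912, minus strand), was listed at 249.7 and 207.7 TPM in WT and at 305.3 and 406.4 TPM in Chd8-/-. The groups did not overlap (log2 fold change 0.63, SE 0.23, adjusted p = 0.481). Gstp1 has a near-identical neighbour, Gstp2, so that the split of reads between the pair is uncertain. Gstp2 was between 72.7 and 97.0 TPM (0.03, SE 0.23), and the ratio of Gstp1 to Gstp2 was 2.98 and 2.58 in WT and 4.20 and 4.19 in Chd8-/-.

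The other transferases were lower or inconsistent. Mgst2, a microsomal enzyme that also makes leukotrienes, was listed at 86.4 and 98.2 TPM in WT and at 70.3 and 40.9 TPM in Chd8-/- (-0.77, SE 0.33, adjusted p = 0.529). Gsto1, the omega-class enzyme with deglutathionylase activity, was listed at 51.2 and 38.8 TPM in WT and at 35.5 and 16.3 TPM in Chd8-/- (-0.86, SE 0.45, adjusted p = 0.586). Both genes lay under WT in each Chd8-/- library, and farther in replicate 2. Gstk1, the mitochondrial and peroxisomal kappa-class enzyme, was listed at 9.7 and 14.4 TPM in WT and at 37.5 and 14.3 TPM in Chd8-/-, where only replicate 1 was high (0.92, SE 0.55). Mgst3 overlapped (4.2 to 9.1 TPM, -0.46, SE 0.43). Mgst1, which was not compared, was listed at 0.1 and 0.7 TPM in WT and at 0.0 and 22.3 TPM in Chd8-/-. The high value was in the library with high myeloid and erythroid sums, and their part in it was not tested.

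Msrb1, a selenoprotein that reduces methionine sulfoxide in proteins, was listed at 29.9 and 16.8 TPM in WT and at 44.7 and 36.8 TPM in Chd8-/-. Both Chd8-/- libraries were higher (0.83, SE 0.37, adjusted p = 0.541). Msra, which acts on the other stereoisomer, was between 2.6 and 8.2 TPM (-0.02, SE 0.59). The selenoproteins among the redox genes were thus not alike, since Gpx4 and Msrb1 were separated between genotypes and Gpx1, Txnrd1 and Txnrd2 overlapped. Among 18 other selenoproteins and genes of selenium handling, the median was -0.17, near the -0.15 of all genes. It was -0.34 without Chd8-/- replicate 1, -0.04 without replicate 2 and -0.04 after quantile normalization. Of the 18, 0 lay above WT in both Chd8-/- libraries (beside 14.8% of all genes) and 4 lay under it (beside 27.8%). None of the 18 had an unadjusted limma p under 0.05 (0 genes, beside 3.9% higher and 6.3% lower of all genes). The values that departed most were those of Gpx3 (-0.84, SE 1.47), Selo (-0.72, SE 0.51), Scly (-0.71, SE 0.47) and Selm (-0.65, SE 1.46), each within 2 standard errors of 0.

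Of 17 other genes of glutathione handling that were compared, 1 had an unadjusted p under 0.05, on the higher side, beside 3.9% of all genes. This was Gstt3, a theta-class transferase, listed at 4.9 and 6.5 TPM in WT and at 16.6 and 11.6 TPM in Chd8-/- (1.16, SE 0.37, adjusted p = 0.463). Slc3a2, the heavy chain of the cystine and amino acid transporters, was also higher in both Chd8-/- libraries (14.2 and 15.4 TPM in WT, 22.7 and 27.6 TPM in Chd8-/-, 0.72, SE 0.27). Chac2 (-1.15, SE 0.84) and Gstm2 (-1.14, SE 0.81) overlapped between genotypes. The median of this list was -0.01, and 0.18 after quantile normalization. Slc7a11, the cystine transporter itself, was listed at 0.0 to 0.1 TPM in every library.

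Genes of NADPH supply and other mitochondrial redox enzymes (14 compared) had a median log2 fold change of 0.00, and 0 passed an unadjusted p of 0.05, beside 3.9% higher and 6.3% lower of all genes. Msrb2, the mitochondrial methionine sulfoxide reductase, was lower in both Chd8-/- libraries (19.5 and 16.6 TPM in WT, 8.9 and 1.2 TPM in Chd8-/-, -2.03, SE 0.81), in contrast to Msrb1. Nadk2 (0.77, SE 0.48) was higher in both, and Msrb3 (0.79, SE 0.80) and Idh2 (-0.63, SE 0.72) overlapped. Subunits of the NADPH oxidase, which produces superoxide, had a median of 0.07 over 7 genes, of which 1 had an unadjusted p under 0.05, on the higher side (beside 3.9% of all genes). That median was 0.03 with a mean TPM of at least 5 and 0.17 without Chd8-/- replicate 1. Ncf1, which encodes its organizer subunit p47phox, was listed at 11.8 and 14.5 TPM in WT and at 31.2 and 41.8 TPM in Chd8-/- (1.40, SE 0.30, adjusted p = 0.403). The genotypes were well apart for Ncf1, whereas the catalytic subunit Cybb (12.5 to 29.2 TPM, -0.23, SE 0.51) and its partner Cyba (108.8 to 131.9 TPM, 0.14, SE 0.18) overlapped and Nox1 was at most 3.8 TPM (0.30, SE 0.39).

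Sestrins, stress-induced inhibitors of mTORC1 that also help to reduce peroxiredoxins, did not share a direction. They were compared with other p53-linked redox genes (5 in all, median -0.36, which was -0.78 without Chd8-/- replicate 1 and 0.06 without replicate 2), of which 1 was higher and 1 lower at an unadjusted p under 0.05 (beside 3.9% and 6.3% of all genes). Sesn2 was listed at 2.7 and 11.1 TPM in WT and at 43.9 and 21.3 TPM in Chd8-/- (2.24, SE 0.73, adjusted p = 0.465). Sesn1 was listed at 159.0 and 166.2 TPM in WT and at 59.8 and 33.2 TPM in Chd8-/- (-1.84, SE 0.34, adjusted p = 0.402). The groups did not overlap for either gene, and the levels of the pair were closer to each other in Chd8-/- than in WT. Sesn3, the most abundant sestrin, named after its values were seen, was listed at 344.8 and 329.1 TPM in WT and at 387.3 and 388.5 TPM in Chd8-/- (0.20, SE 0.15). The p53 targets Fdxr (-0.75, SE 0.36) and Tigar (-0.36, SE 0.44), which support ferredoxin reduction and the pentose phosphate pathway, had lower means in Chd8-/-. Among 9 relatives and regulators of Txnip the median was 0.06, but it was -0.15 with a mean TPM of at least 5 and -0.18 without Chd8-/- replicate 2, -0.17 without WT replicate 1 and -0.15 without WT replicate 2. Of the 9, 0 were higher and 1 lower at an unadjusted p under 0.05, beside 3.9% and 6.3% of all genes. Foxo1, a transcription factor that drives quiescence and antioxidant genes, was listed at 357.8 and 368.8 TPM in WT and at 210.8 and 189.3 TPM in Chd8-/- (-0.86, SE 0.16, adjusted p = 0.402). Ddit4, another stress-induced inhibitor of mTORC1, was higher in both Chd8-/- libraries (0.88, SE 0.40), and the arrestin-domain genes Arrdc4 (-0.86, SE 0.58) and Arrdc3 (-0.64, SE 0.39) had lower means.

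**Figure D4:**
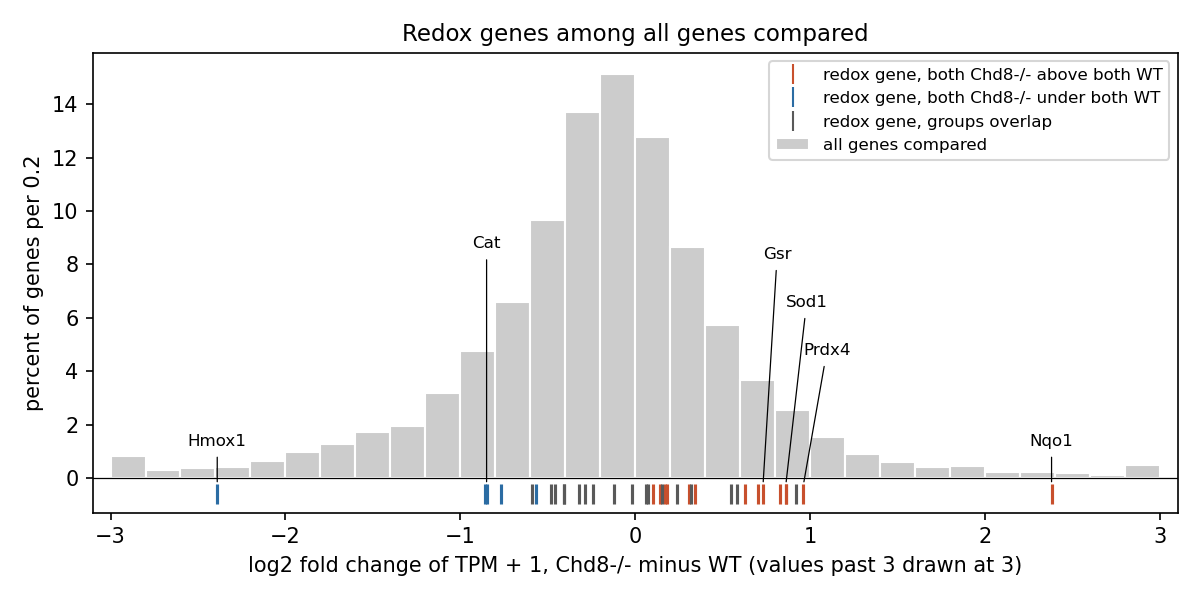
Percent of the 15240 genes compared per bin of log2 fold change (grey bars, width 0.2, Chd8-/- minus WT) with 1 tick below the axis for each of the 37 redox genes. The ticks centre at a median of 0.14 as compared with -0.15 for all genes, and Nqo1 at 2.38 and Hmox1 at -2.39 stand at either end.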

How the data were processed

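RNA-seq of sorted YFP+ splenic Tregs (2 WT and 2 Chd8-/- mice) was analysed. According to the methods and the processing notes, the authors trimmed the reads with Trim Galore 0.4.2 and cutadapt 1.9.1, used STAR 2.6.1e for alignment to mm10 and sambamba against duplicates, assigned reads to RefSeq genes by featureCounts 1.6.2, and deposited TPM values rounded to 0.1. TPM is per transcript length and per library, keeps no depth, and shifts when a few genes take a larger share, so that no interval for counting error is given. The strand setting was not given in the sources used here, and reads of genes with overlapping exons cannot be told apart. Groups were taken from the titles of the samples.

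The table lists 35869 names, of which 4 entries whose name is repeated were dropped. Genes reaching 1 TPM in 2 or more libraries were compared as log2(TPM + 1) by the two-sided moderated test of limma 3.58.1 under R 4.3.3 (linear model, variance trend) with p-values adjusted after Benjamini and Hochberg over 15240 genes (threshold 0.05). Fold changes on this scale understate those of low genes. The fit was tested on simulated data. Values per library are named by genotype and replicate number, and the numbers link no mice across genotypes. Leave-one-out fits with 1 library in a genotype assume that it varies like the others.

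The 38 genes and all lists were chosen with earlier results of these data known, and no set test was made. Given in full are genes with an unadjusted p under 0.05, a log2 fold change of at least 0.5 in size, 1 of the 8 highest mean levels or a place in the KEAP1-NRF2 switch. Up to 4 genes per other list with the largest log2 fold change are named, and Slc7a11 and Sesn3 were added after their values were seen. The cutoff of 0.7 is one the study used. Positions and promoters are from RefSeq, GRCm38.p6. Alternatives tried were other pseudocounts and filters, no variance trend, quantile normalization, a block for the replicate number and leaving out each library. 1 gene of the NADPH oxidase list is not reported here. ATAC-seq and CHIP-seq peaks, which are in mm39 coordinates, are not analysed here. Python 3.11.15 with pandas 2.3.3 and matplotlib 3.10.9 was used for the summaries.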

Additional observations from a re-analysis of the deposited data

How the results depend on the processing

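Leaving out 1 library moved several counts and directions. Groups that are apart stay apart when a library is left out. The count of genes apart could thus only rise, but for genes lost to the filter. The count of genes apart and lower in Chd8-/- (5) ran from 8 to 12, while that share of all genes (27.8%) ran from 37.5% to 53.8%. The count at or past a log2 fold change of -0.7 (4) ran from 1 to 9, while that share (19.2%) ran from 14.8% to 28.8%. The median log2 fold change (0.14) ran from 0.06 to 0.19, and that of all genes (-0.15) from -0.24 to -0.04. The count with an unadjusted limma p under 0.05 (5) was 3 with a mean TPM of at least 5, 3 for eBayes without trend and 2 with a replicate block. Beside these, 3.98%, 3.44% and 3.31% of all genes were higher and 5.96%, 6.65% and 5.45% lower, respectively. The replicate numbers only share a number (correlation of deviations -0.0117 with 2 pairs), and the block changed no adjusted call. Among genes given in full, the log2 fold change reversed on leaving out 1 library for Gpx1 (-0.10 to 0.58), Prdx5 (-0.07 to 1.18), Srxn1 (-1.62 to 1.14), Glrx2 (-1.36 to 0.18) and Nfe2l2 (-0.06 to 0.18), and among those given by range for Txn2 (-0.09 to 0.73), Txnrd2 (-0.26 to 0.02), Prdx2 (-0.66 to 0.08), Prdx3 (-0.15 to 0.29), Glrx3 (-0.73 to 0.08), Hmox2 (-0.01 to 0.31) and Msra (-0.70 to 0.66). Of the other genes named it reversed for Gpx3 (-2.47 to 0.79), Selm (-2.62 to 1.32), Idh2 (-1.40 to 0.14), Cybb (-0.73 to 0.26) and Tigar (-0.78 to 0.06). The log2 fold change of Nqo1 was 1.00 with a pseudocount of 5 TPM and 4.46 with 0.1 TPM, and that of Srxn1 reversed with a pseudocount of 5 TPM (0.05) and with quantile normalization (0.04). The causes were not tested. Of the values under each alternative, 8 of 260 values of the redox genes given in full and 8 of 299 values of the other genes named reversed. The other filters, the replicate block and the fit without trend leave a log2 fold change as it is, so their values could not reverse. These counts are therefore no measure of stability. No redox gene had an adjusted p under 0.05 in any alternative (0 genes, lowest adjusted p 0.168), and 2 genes of the whole table did with a mean TPM of at least 5. Settings for ATAC-seq and CHIP-seq were not run. With 2 mice per genotype and depth unknown, small differences such as those of Txnip and Prdx1 were not detectable.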
